A study of Mus musculus with 2 samples.

Results

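The accessible regions of 5 genes were examined in mouse common myeloid progenitors: Gata1, Gata2 and Gata3, which encode zinc finger transcription factors of the GATA family, and Zfpm1 and Zfpm2, which encode their cofactors FOG1 and FOG2 (friend of GATA). A region belonged to a gene when its edge came within 1 kb of where one of the gene's protein-coding transcripts begins (a promoter region), or when its summit lay farther than 1 kb from every protein-coding start and the nearest such start, within 100 kb, was the gene's (a distal region). By this rule 28 of the 67376 regions on chromosomes 1 to 19 and X belonged to the 5 genes, 6 as promoter and 22 as distal regions. The assay was ATAC-seq, which reads out where a transposase can insert into DNA, on primary progenitors of adult (5 to 6 weeks) male C57BL/6J mice. The single group has 2 libraries of 50000 cells, called biological replicates 1 and 2. Their donor label is the same and no label names separate mice, so their spread may be technical only. No mutant, treatment or second cell type was among the samples. A peak list holds no read counts, so depth is unknown and values are described against all regions or all genes, without a test. As a check of the label, 5 of 5 progenitor markers (Kit, Cd34, Flt3, Csf1r and Mpo) had a promoter region, against 61.3% of all protein-coding genes, and of 7 markers of other cells only Gp9, a platelet glycoprotein, did. In each replicate's own list 3 of the 5 had one, a share near the 56.7% and 52.4% of all genes in those of replicates 1 and 2. Among genes of other cells in the lists used below, Cd3d, Hbb-bs, Hdc, Cpa3 and Pf4 had a promoter region. Il5, Il13, Tcf7 and Alas2 had none. An open promoter thus did not separate progenitor genes from those of other cells.

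GATA factors recognise a short sequence built around the letters GATA and act in succession in blood: GATA2 in stem cells and early progenitors, mast cells and basophils, GATA1 in red cells, megakaryocytes, eosinophils and mast cells, and GATA3 in T cells and innate lymphoid cells. FOG1 binds GATA1 and is needed for red cell and megakaryocyte formation, and it links GATA factors to the NuRD chromatin remodelling complex. FOG2 is best known as a partner of GATA4 in the heart. The genes are themselves controlled by GATA factors through enhancers, among them an intronic element of Gata2 in which an E-box lies beside a GATA sequence.

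Summit sequences are shown first, with their matches to the GATA sequence. Distances are from the gene's main start, which for Gata2 is the upstream one of its coding starts. Each window reaches 50 bp to each side of the strongest summit of a region, on the plus strand of mm10, read 5′ to 3′. Capitals mark a match on either strand to AGATAA, to AGATAG, to TGATAA or to TGATAG (hereafter a GATA match) and any E-box, CANNTG, that lies 6 to 9 bases before an AGATAA. The first 5 windows lie in regions that meet the positions of known enhancers of Gata1 and Gata2, the Zfpm1 window is the one with the most matches and was chosen after its value was seen, and the last is the summit with the highest signal of all 28.
Gata1, 3.6 kb upstream, chrX:7971435-7971535: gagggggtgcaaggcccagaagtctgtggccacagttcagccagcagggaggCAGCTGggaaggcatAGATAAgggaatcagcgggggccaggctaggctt
Gata1, 3.6 kb downstream, chrX:7964220-7964320: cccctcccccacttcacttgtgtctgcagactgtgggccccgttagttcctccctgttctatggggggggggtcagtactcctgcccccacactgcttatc
Gata2, 9.3 kb downstream, chr6:88203168-88203268: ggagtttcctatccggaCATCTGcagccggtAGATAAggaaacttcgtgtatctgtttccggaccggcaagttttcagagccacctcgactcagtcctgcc
Gata2, 4.1 kb upstream, chr6:88189735-88189835: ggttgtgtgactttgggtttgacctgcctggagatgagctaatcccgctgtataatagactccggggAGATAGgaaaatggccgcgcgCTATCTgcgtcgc
Gata2, 76.9 kb upstream, chr6:88116990-88117090: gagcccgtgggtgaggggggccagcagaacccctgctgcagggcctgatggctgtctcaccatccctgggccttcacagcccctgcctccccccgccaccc
Zfpm1, 27.4 kb downstream, chr8:122309473-122309573: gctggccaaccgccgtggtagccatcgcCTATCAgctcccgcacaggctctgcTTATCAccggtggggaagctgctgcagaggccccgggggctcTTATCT
Gata3, 76.9 kb downstream, chr2:9801602-9801702: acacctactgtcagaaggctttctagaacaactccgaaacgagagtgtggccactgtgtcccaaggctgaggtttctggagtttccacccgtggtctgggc

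Gata1, the master regulator of red cell development, lies on the minus strand of chromosome X (7959260 to 7978071, 18.8 kb) and had 4 regions. Of these, 3 were distal and ranked high. The region 25.6 kb upstream of the main start at position 7967910 (7993296 to 7993731, intergenic) had a peak signal of 11.50, a deposited strength whose scale is not stated, with 10.27 in replicate 1's own list and 9.29 in that of replicate 2. Its neighbour 25.0 kb upstream (7992765 to 7993024) had 10.39, with 9.46 in replicate 1, and was not in replicate 2's own IDR-thresholded list, although a less strict list of that library gave it 8.18. IDR, the irreproducible discovery rate, is the measure by which peaks are kept when they rank alike in repeated calls. The region 3.6 kb upstream (7971146 to 7971848) had 10.80, with 10.32 and 9.57. It lies in an intron of the longest transcript and upstream of the main start. These 3 regions stood at percentiles 81.7, 73.4 and 76.8 of the signal of all 52592 regions with a distal summit. Chromosome X is present in 1 copy in males, and the median signal of distal regions on X was 8.72 against 8.16 on the autosomes, while the median −log10 p was 35.3 against 39.1. Among the 1112 distal regions of X alone the same 3 regions stood at percentiles 76.1, 66.2 and 71.0.

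The promoter region of Gata1 did not lie at its main start. It spanned 7963809 to 7964449, with its summit 3.6 kb downstream of the main start, and qualified because a shorter coding transcript starts inside it, at 7964166. The same region also covers a known enhancer position of Gata1, 3.5 kb downstream, and the lists do not tell the roles apart. The region's signal of 5.41 stood at percentile 14.1 of promoter summits, and it was in neither replicate's own IDR-thresholded list. In the less strict pseudoreplicated lists, which compare random parts of 1 library, it had 5.01 in replicate 1 and 4.83 in replicate 2. The nearest conservative region to the main start was 3236 bp away. A peak over the main start was present in the series IDR-thresholded list (signal 4.76) and in replicate 1's own list (5.22). In replicate 2 it was absent from the IDR-thresholded list, and a peak of signal 3.52 lay 54 bp from the start in the pseudoreplicated list. The most upstream coding start, at 7978071, had no region within 1 kb in any of the 8 lists compared. Regions at the Gata1 coding starts therefore differed between lists by position and by library, while the upstream region at 3.6 kb was in both own lists.

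Gata2, the stem and progenitor member of the family, lies on the plus strand of chromosome 6 (88193891 to 88207032, 13.1 kb). It had 4 distal regions and, in the conservative list, no region within 1 kb of either coding start. The region 27.6 kb upstream of the distal start (88165935 to 88166613, intergenic) was its strongest, with a signal of 9.35, 8.05 in replicate 1 and 8.42 in replicate 2. The region 4.1 kb upstream (88189510 to 88190180, inside the noncoding gene Gm38708) had 7.05, with 6.997 and 6.80. The intronic region 9.3 kb downstream (88202946 to 88203628) had 4.78, with 4.47 and 5.07. These 3 were in both own lists and their order by signal was the same in each library. The region 9.0 kb upstream (88184746 to 88184990), with 5.31, was in neither own IDR-thresholded list and had 4.55 and 4.96 in the pseudoreplicated lists. The intronic region was thus low in signal for a distal region, at percentile 6.999. Its −log10 p was 40.3, against a median of 39.1 for distal regions on the autosomes, and it passed the threshold in each library alone.

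At the Gata2 starts, weak peaks appeared only in the replicated and pseudoreplicated lists among the 8 compared. In the pseudoreplicated list of both libraries a peak of signal 2.28 lay 78 bp from the distal start at 88193891, and one of 2.61 covered the proximal start at 88198334. In the own pseudoreplicated lists a peak lay 196 bp from the proximal start in replicate 1 (2.52) and 208 bp from it in replicate 2 (2.87), and the peak nearest the distal start was the region 4.1 kb upstream. The RefSeq promoter windows of Gata2 (GRCm38.p6) had a GC content of 69.3% and 73.7%, with no GATA match in either. A promoter region was found at 4 of the 5 genes, Gata2 being the exception, and at 61.3% of all protein-coding genes. That of Gata1 lay at the start of a shorter coding transcript and over a known enhancer position, and its main start had no conservative region within 1 kb. With starts of all annotated transcripts all 5 genes had a promoter region, since a Gata2 transcript with a retained intron starts 817 bp from the intronic region. In the own IDR-thresholded list of replicate 1 it was found at 3 of the 5 (Gata1, Gata3 and Zfpm1) against 56.7% of all genes, and in that of replicate 2 at 2 (Gata3 and Zfpm1) against 52.4%.

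**Figure D1:**
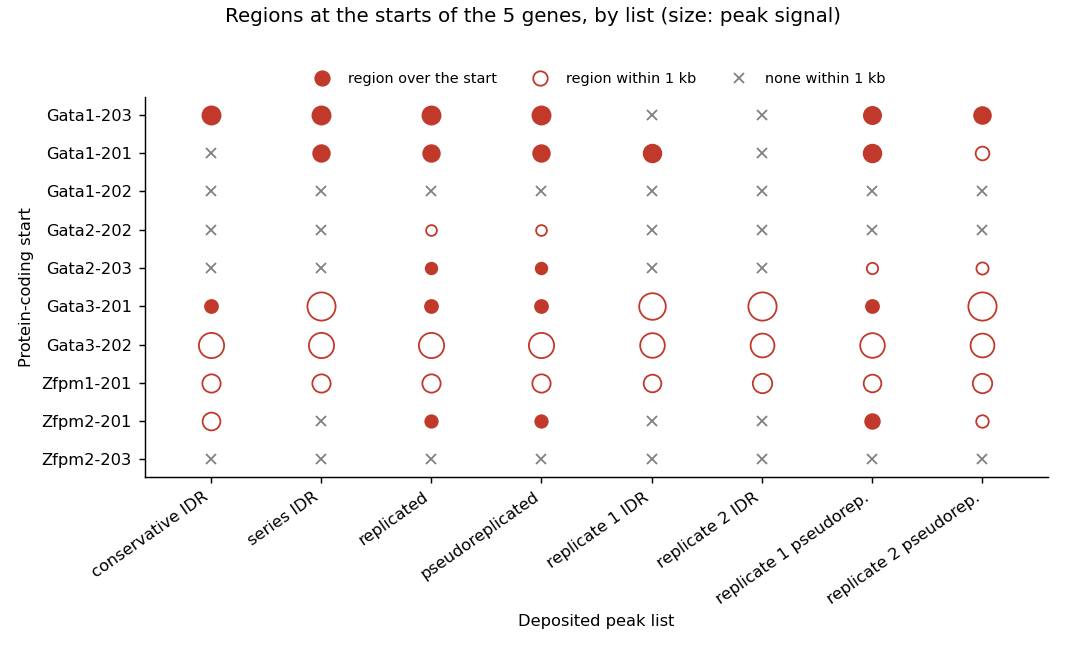
Each row is a protein-coding start and each column a deposited peak list, with a filled circle for a region over the start, an open circle for one within 1 kb, a cross for none, and circle size for peak signal. The Gata2 starts have circles only in the replicated and pseudoreplicated lists, and the main Gata1 start has a filled circle in replicate 1's IDR-thresholded list and a cross in that of replicate 2.

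Gata3, the regulator of T cells and innate lymphoid cells, lies on the minus strand of chromosome 2 (9857078 to 9890034, 33.0 kb) and had 7 regions, of which 3 were promoter regions. The strongest of all 28 was distal to it: the intergenic region 76.9 kb downstream of the main start (9801352 to 9801955), beyond the gene's end, had a signal of 13.09, with 12.38 in replicate 1 and 11.93 in replicate 2, at percentile 89.8 of distal regions. The region 1.1 kb upstream of the main start (9879303 to 9879930, intronic) had 9.69, with 9.02 and 9.72, and the highest −log10 p of the 28, 155. Near the upstream start at 9890034 a region (9888907 to 9889743, intronic) had 8.43, with 8.18 and 7.84. All 3 were in both own lists. Over the main start itself, at 9878600, the region (9878356 to 9878747) had only 3.21, percentile 0.798 of promoter summits. It was in neither own IDR-thresholded list, and in the pseudoreplicated lists it had 3.23 in replicate 1 and none in replicate 2.

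Inside the Gata3 gene, the intronic region 7.2 kb downstream (9870914 to 9871654) had 6.53, with 6.03 and 6.33. Those 10.9 kb (3.58) and 17.7 kb downstream (8.05) were in neither own IDR-thresholded list. The latter had 6.39 in replicate 1 and 7.43 in replicate 2 in the pseudoreplicated lists, and the former none and 3.53. Gata3 was the member with the most promoter regions in the conservative list, and 2 of them were in each own list.

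Zfpm1, which encodes FOG1, lies on the plus strand of chromosome 8 (122282141 to 122337251, 55.1 kb) and had 12 of the 28 regions. Its promoter region (122281045 to 122282135) ended 6 bp before the start and was the widest of the Zfpm1 regions at 1091 bp, with 3 summits. Its signal was 5.47, with 5.21 in replicate 1 and 5.96 in replicate 2, percentile 14.6 of promoter summits. The 11 distal regions lay from 84.6 kb upstream to 33.0 kb downstream, 6 upstream and 5 within introns. One further protein-coding model, Gm20388, spans 4.4 Mb here and was set aside when places were named. The strongest was 51.2 kb upstream (122230584 to 122231269), with 8.80, 8.42 and 7.78. The weakest, 2.8 kb downstream (122284618 to 122285154), had 2.95, and in the pseudoreplicated lists 2.73 and 3.29.

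Among the other Zfpm1 regions, those 8.8 kb upstream (6.38, with 5.99 and 6.24), 22.1 kb (7.36, with 6.64 and 7.09), 27.4 kb (6.08, with 5.79 and 5.81) and 33.0 kb downstream (5.95, with 5.56 and 5.75) were in both own lists. The region 35.7 kb upstream was in replicate 2's own IDR-thresholded list only, with 8.61, and had 6.64 in replicate 1's pseudoreplicated list. The regions 17.7 kb and 6.9 kb upstream and 12.2 kb downstream were in that of replicate 1 only, with 5.32, 5.04 and 4.37. In replicate 2's pseudoreplicated list these 3 had 6.23, 5.41 and 5.07, with a −log10 p of 19.99, 16.1 and 14.1, against 22.6, 21.1 and 15.8 in replicate 1. The signal values were thus higher and the −log10 p lower in replicate 2, in libraries of unknown depth. The region 84.6 kb upstream (6.39) was in neither, with 4.92 and 6.56 in the pseudoreplicated lists.

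Zfpm2, which encodes FOG2, lies on chromosome 15 (40655035 to 41104592, 449.6 kb) and had 1 region (40655607 to 40656239). Its edge was 572 bp from the main start and its summit 1.0 kb downstream, in an intron. The signal was 5.27, and it was in neither own IDR-thresholded list, with 4.80 and 4.75 in the pseudoreplicated lists. No distal region was given to Zfpm2 from a territory of 206.0 kb, the stretch beyond promoters whose nearest start is the gene's. A second region inside the gene body, with a signal of 8.16, had its summit 364.9 kb from the nearest Zfpm2 start and so lay beyond the limit of 100 kb. The series IDR-thresholded list held no promoter region and 1 distal region of Zfpm2. Over the main start itself, weak peaks lay in the pseudoreplicated lists, with a signal of 3.00 in that of both libraries and 3.93 in that of replicate 1, and with 3.02 at 137 bp in that of replicate 2.

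**Figure D2:**
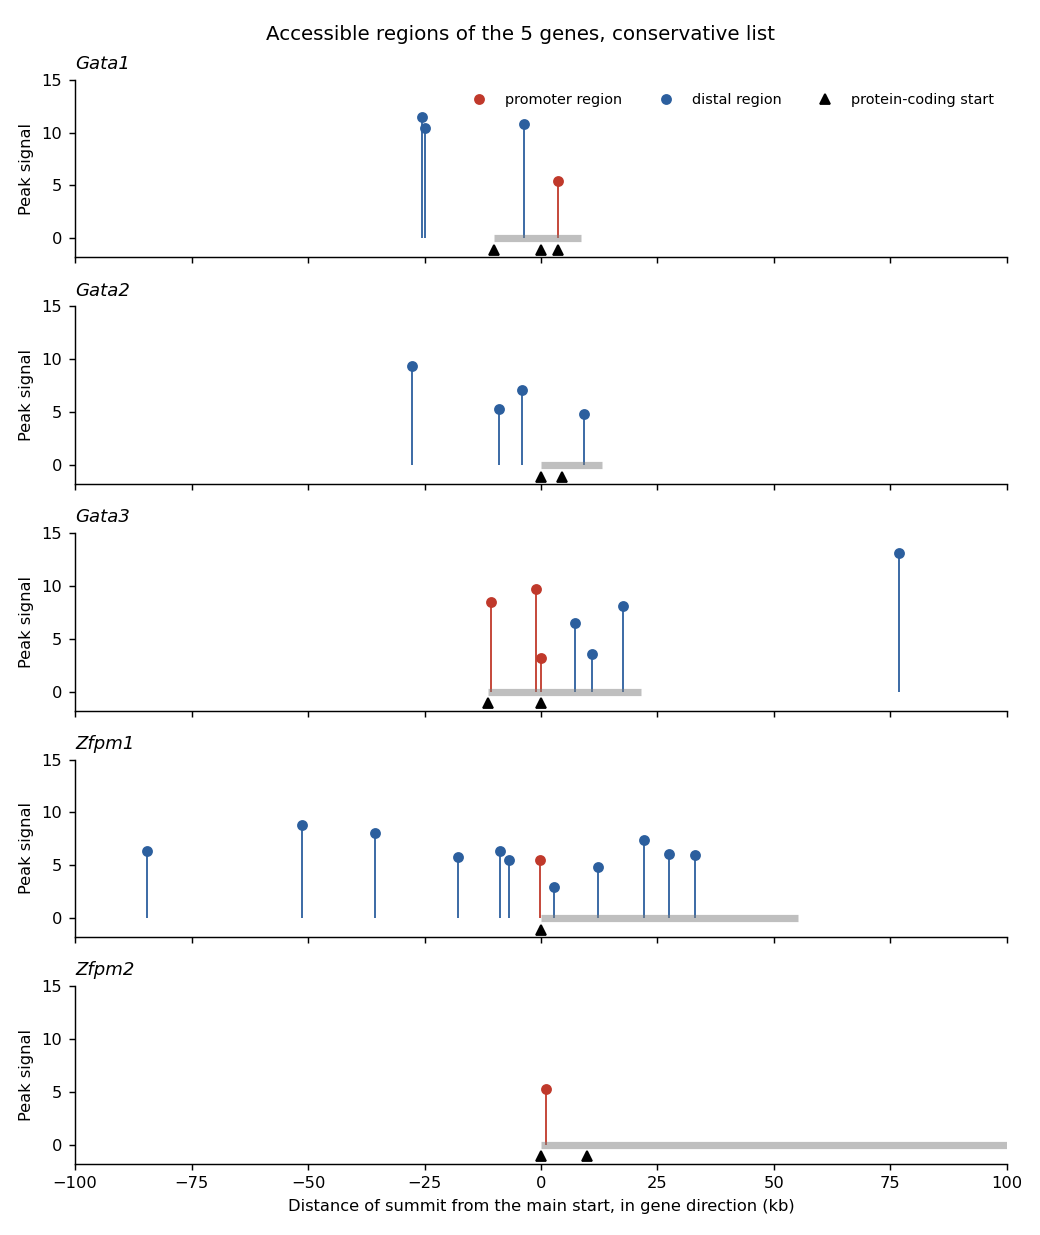
Peak signal of each region (vertical axis) against the distance of its summit from the gene's main start in the direction of transcription (kb), with promoter regions in red, distal regions in blue, coding starts as triangles and the gene body as a grey bar. Zfpm1 has 12 regions spread over its locus and Zfpm2 has 1, and the tallest line is the Gata3 region 76.9 kb downstream.

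Zfpm1 had the most distal regions of the 5 genes. It had 11, a count reached by 507 of 21646 protein-coding genes (2.34%). That count depended on the list: Zfpm1 had 8 distal regions in replicate 1's own IDR-thresholded list and 6 in that of replicate 2, but 22 in the replicated and 20 in the pseudoreplicated list of both libraries. Gata2 and Gata3 had 4 each, a count reached by 19.7% of genes, Gata1 had 3, reached by 27.9%, and at least 1 was found at 60.2%. The median over all genes was 1. Territories differ in length, so the counts were also scaled: Gata1 had 8.27 distal regions per 100 kb of territory, Zfpm1 8.01, Gata2 5.96 and Gata3 3.49, against 2.93 over all genes together. By this density Gata1, in its 36.3 kb, stood level with Zfpm1, in its 137.3 kb, and 12.2% and 12.9% of genes reached as high a value. The Gata1 value rests on only 3 regions, of which those 25.6 and 25.0 kb upstream are close neighbours. Replicate 2's own IDR-thresholded list held 2 distal Gata1 regions.

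**Figure D3:**
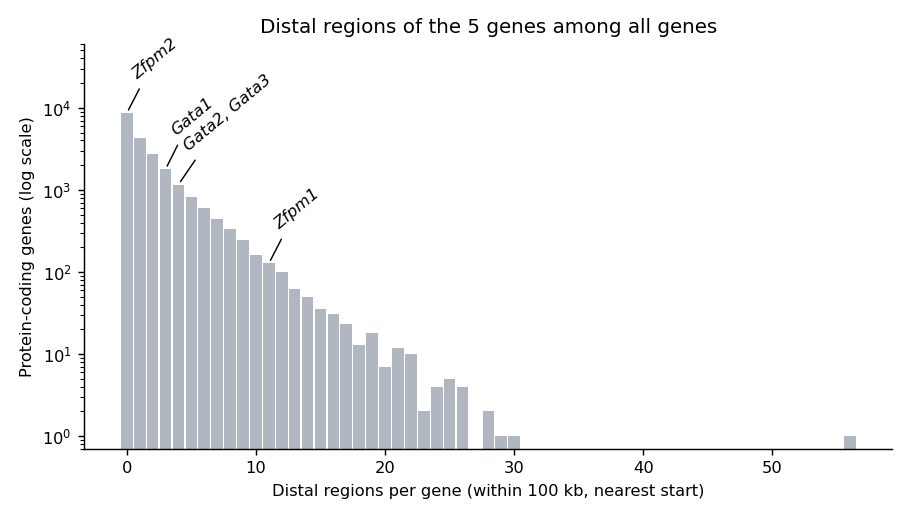
Number of protein-coding genes (log scale) with each count of distal regions within 100 kb, with the 5 genes marked. Zfpm1, at 11 regions, lies in the upper tail, Gata1, Gata2 and Gata3 lie at 3 and 4, and Zfpm2 is among the genes with 0.

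Most of these regions were low in peak signal. Only 7 of the 28 lay above the median signal of their class, which was 9.33 for promoter and 8.16 for distal summits: the 3 distal Gata1 regions, 1 of Gata2, 2 of Gata3 and 1 of Zfpm1. The median percentile of signal was 25.4. By −log10 p they were not low as a set: most of those with a distal summit exceeded the autosomal distal median of 39.1. Low-signal regions were among them, such as those 4.1 kb upstream of Gata2 (60.2) and 22.1 kb downstream of Zfpm1 (56.8). Others, such as the Zfpm2 region (18.0), did not, and no rank by −log10 p was computed. In replicate 1's own IDR-thresholded list 19 of the 28 were found, where 67.9% of all regions were, and in that of replicate 2 16 were found, where 54.9% of all regions were. Both lists held 15, with 50.6% of all regions, and neither held 8, with 27.9%. These shares lay near the backgrounds. Of the 24 with a distal summit, replicate 1's list held 17 (63.3% of all distal regions), that of replicate 2 held 14 (49.2%), both held 13 (44.4%) and neither held 6 (31.8%). Each replicate's pseudoreplicated list held 27 of the 28, where those lists held 98.2% and 95.1% of all regions. The conservative list was derived from the same 2 libraries, so this is a description of the lists.

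Signal values of the same region were close in both libraries. Over the 26 regions with a value in both pseudoreplicated lists, Spearman's rho was 0.927 and Pearson's r 0.949. These describe regions of the same libraries and carry no p-value. The regions had been kept by IDR for ranking alike, and those with a value in 1 list only were left out. Agreement was therefore selected for, and no value over all regions is set beside it. The 8 regions in neither own IDR-thresholded list had conservative signals of up to 8.05, and those in both began at 4.78, so the 2 sets overlapped in signal. By conservative −log10 p they did not overlap. The 8 reached at most 28.2 (Gata3, 17.7 kb downstream), and those in both began at 40.3 (Gata2, 9.3 kb downstream). The own lists and these −log10 p values come from the same libraries, so the separation is not independent of the filter.

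**Figure D4:**
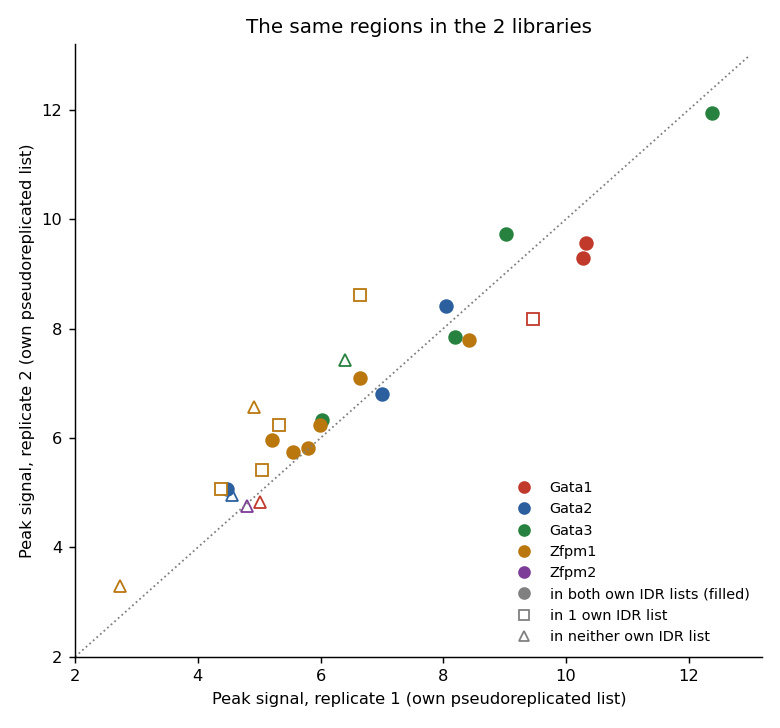
Peak signal of each region in replicate 1 (horizontal) and replicate 2 (vertical), from their own pseudoreplicated lists, with colour for the gene and the symbol for presence in the own IDR-thresholded lists; the dotted line marks equal values. The 26 regions with both values lie along the line, and open symbols mix with filled ones in signal.

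GATA matches were counted in each region. The counts per gene are small, and differences between the genes were not tested. Within 50 bp of the summit, 7 of the 28 regions held a match: 1 of Gata1, 2 of Gata2, 4 of Zfpm1 and none of the 7 Gata3 regions or the Zfpm2 region. The windows printed above show 4 of them, and the other 3 are the Zfpm1 summits 6.9 kb upstream and 12.2 and 33.0 kb downstream. All 7 were among the 24 regions whose summit lay over 1 kb from a start. Over the series such a match lay at 16.8% of all summits, 19.5% of distal and 7.23% of promoter summits. Anywhere in the region, 16 of the 28 held one, against 53.5% of all regions. Counted over whole regions, Gata1 had 7 matches in 4 regions (3.43 per kb), Zfpm1 16 in 12 (2.54 per kb), Gata2 4 in 4 (1.76 per kb), Zfpm2 1 in 1, and Gata3 1 in 7 (0.243 per kb). The density was 1.99 per kb over all distal and 0.863 per kb over all promoter regions, and 1.89 per kb over the 28. Each Gata1 region held at least 1 match, whereas 6 of 7 Gata3 regions, which together cover 3726 bp, held none. A match is a description of the sequence, and binding was not measured.

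An E-box before a GATA match lay at 2 of the 28 summits, against 0.335% of all, 0.411% of distal and 0.0676% of promoter summits. One was the Gata1 region 3.6 kb upstream, where CAGCTG was followed after 9 bases by AGATAA, and the other the Gata2 intronic region, where CATCTG was followed after 8 bases by AGATAA. In the latter the next bases, GGAA, gave an ETS core, AGGAA, that overlapped the GATA match by 1 letter. Both regions were in both own lists, with conservative signals of 10.80 and 4.78. The pattern searched is that of the Gata2 intronic element described above, so the match there was not an independent finding. The Gata2 region 4.1 kb upstream held 2 matches, both AGATAG, on opposite strands. The Zfpm1 region 27.4 kb downstream held 3 matches at its summit, all on the minus strand, and 5 in all. At least 3 matches lay at 0.119% of all and 0.15% of distal summits. The weakest Zfpm1 region, 2.8 kb downstream, held 4, none of them at the summit.

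**Figure D5:**
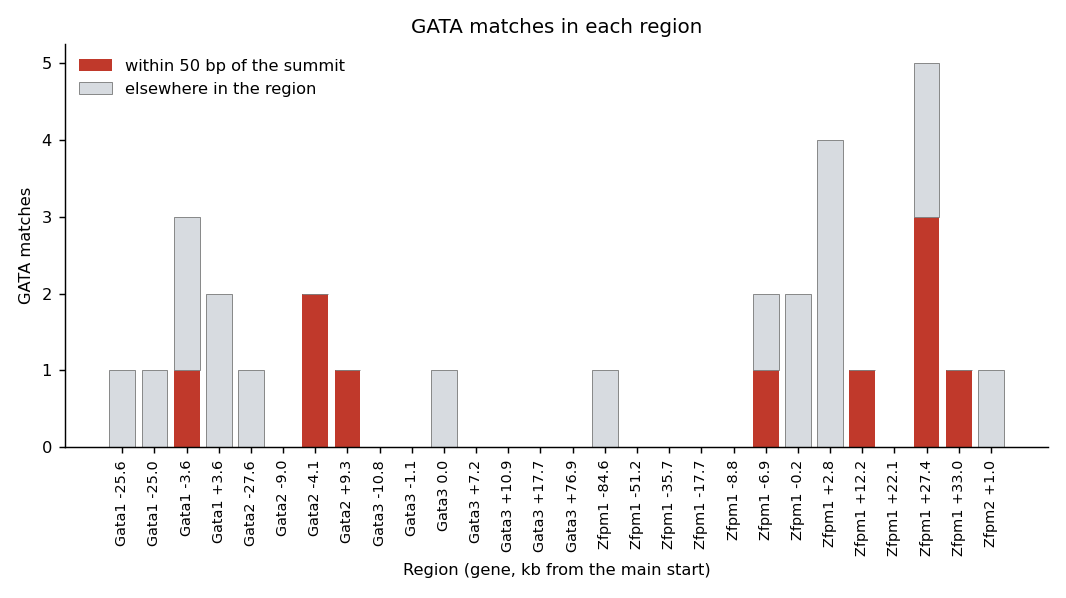
Number of GATA matches in each of the 28 regions, named by gene and by kb from the main start, with matches within 50 bp of the summit in red and those elsewhere in grey. Zfpm1 has 16 matches in 12 regions and Gata1 has 7 in 4, and of the 7 Gata3 regions only that over the main start has one.

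Other motifs were searched in the same windows on both strands. The ETS core AGGAA lay at 10 of 28 summits (47.4% of all regions), RUNX (TGTGGT) at 2, both of Zfpm1 (17.3%), KLF (CCACACCC, or alternatively CCCCACCC) at 2 of Zfpm1 (4.46%), and the PU.1 form GAGGAAGT at 0 (5.97%). NF-E2, whose sequence ends in the AP-1 letters TGAGTCA, matched only the Gata3 region 17.7 kb downstream (0.466% and 3.98% of all regions). A CTCF match lay only at the Zfpm1 region 8.8 kb upstream (6.70%). The GC content of the windows ran from 45.5% to 70.3% with a median of 55.9%, against 51.5% at distal and 63.4% at promoter summits. By place, 15 summits were in introns of the 5 genes and 13 between genes.

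Known enhancer positions of Gata1 and Gata2 all lay within 2 kb of a region. Of the 8 listed offsets, the Gata2 ones at −3.9, −2.8 and −1.8 kb met the same region, 4.1 kb upstream, which covers the first and lies 911 bp and 1911 bp from the others, so the list does not show those elements as separate. The offset at 9.5 kb fell inside the intronic region, and the Gata1 offsets at −25, −3.5 and 3.5 kb inside regions at those places. Regions within 2 kb of the same offset are found at 19.6% of protein-coding starts for −77 kb, 20.8% for −3.9 kb, 28.0% for −2.8 kb, 61.1% for −1.8 kb, 18.7% for 9.5 kb, 20.8% for −25 kb, 21.4% for −3.5 kb and 17.5% for 3.5 kb. In replicate 1's own IDR-thresholded list the 3.5 kb offset of Gata1 was 3462 bp from a region and in that of replicate 2 6782 bp, the only offset missed by either list.

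At −77 kb from Gata2 lay a region that the rule gives to a neighbour. The region (88116355 to 88117584, 1230 bp) lies nearest the start of Rpn1, 32.6 kb away, and had a signal of 8.58, with 8.11 in replicate 1 and 8.71 in replicate 2. It held 4 GATA matches, none at its summit, where GC content was 72.3%. The nearest region outside the rule on the same side of Gata2 lay 57.5 kb from its start and 51.9 kb from that of Rpn1. On the other side the nearest, given to Dnajb8, lay 31.1 kb from a Gata2 start. At Zfpm1, 2 regions inside the gene body, 39.7 and 51.2 kb from its start, were given to Trhr2, and the nearest on the upstream side lay 107.4 kb away, just beyond the limit. For Gata3 the nearest beyond the limit lay 128.3 kb away.

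Genes that work with GATA factors were looked up in fixed lists, by whether a region lay within 1 kb of a coding start. Of 12 partners of GATA factors in blood, such as Tal1, Lmo2, Ldb1 and Runx1, 12 had a promoter region, against 61.3% of all genes. Their median was 2.5 distal regions, with 22 at Runx1 and at Fli1 and 0 at Klf1 and Zbtb7a. Of 13 subunits of NuRD, the complex that FOG1 binds, 11 had one, with none at Chd3 and Mta1, and a median of 2 distal regions. Of 16 target genes of GATA1 and GATA2, 13 had one, among them Kit, Epor, Nfe2 and Zfpm1 itself, and not Alas2, Ms4a2 or Slc4a1. Of 7 genes that GATA3 acts on in lymphoid cells 4 had one, including Il4 and Cd3d, and not Il5, Il13 or Tcf7. Of the other GATA-type genes Gata4, Gata5 and Gata6 had none and Trps1 had 3, with 12 distal regions. In the own IDR-thresholded lists of replicates 1 and 2, 12 and 10 of the partners had a promoter region, and 11 and 11 of the subunits. So did 12 and 10 of the 16 targets and 4 and 3 of the 7 GATA3 genes, against 56.7% and 52.4% of all genes. The GATA3 share in the conservative list, 57.1%, lay near that of all genes. The median over all genes was 1 distal region, and territories differ in length.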

How the data were processed

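ATAC-seq peak lists of 2 libraries on mm10 were used as deposited. Notes deposited with them trace each replicate's lists to that replicate's alignments, and the series lists to both. How reads were aligned, shifted and called is not given in the sources used here. The authors' lists give each peak a signal value of unstated scale, and −log10 p values come from the deposited lists too. Both were used only to describe or rank regions.

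Overlapping peaks of the conservative IDR-thresholded list were merged, keeping the strongest summit, and set against GENCODE M21 and GRCm38.p6, the build of the files. Own values are those of the strongest overlapping region in a replicate's list. The members and lists were chosen with earlier results of these data known. Named genes were the 5 members, neighbours and genes of fixed lists. Windows without a GATA match are printed for some regions only. Methods were tested on simulated data. Python 3.11.15, pandas 2.3.3, NumPy 2.4.6 and pysam 0.24.0 were used.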

Additional observations from a re-analysis of the deposited data

How the results depend on the processing

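Counts depended on the list. With each replicate's own list, the other left out, the 28 regions became 16 to 20, the 6 promoter regions 3 to 4, the 22 distal regions 13 to 16, the 4 genes with a promoter region 2 to 3 (2 without replicate 1) and the 7 summits with a GATA match 5 to 7. The replicated-peaks list gave 52 regions, 10 promoter, 42 distal and 12 with a match, and the pseudoreplicated list of both libraries 50, 11, 39 and 12, with all 5 genes having a promoter region in each. The upper 50% of regions by signal left 8 regions, 2 promoter and 6 distal, 1 gene with a promoter region (Gata3) and 1 summit with a match. Counting distinct summits gave 13 at promoters, and a motif window of 100 bp each side gave 11 regions with a match. Replicate 2's pseudoreplicated list held 27 of the 28 regions. With starts of all annotated transcripts there were 31 regions and Gata2 gained a promoter region, because a transcript with a retained intron starts 817 bp from its intronic region. Other counts over the 5 genes stayed within 1.5 times: those with the series IDR-thresholded list, promoter windows of 500 and 2500 bp, assignment within 50 kb, GATAA alone, 50% reciprocal overlap and the enhancer offsets. The cause of these changes was not tested. Depth is unknown, so a region missing from a list may lie below its threshold.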

Other observations

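The 109.4 kb between the starts of Rpn1, a housekeeping gene of protein glycosylation, and Gata2 held 11 regions outside the Rpn1 promoter, of which the nearest-start rule gave 8 to Rpn1 and 3 to Gata2. Of the 11, 5 were in both own IDR-thresholded lists, 3 of them given to Rpn1. The signals of the 3 were 8.04 (87 kb from the distal Gata2 start, with 2 GATA matches), 8.58 (the region at the −77 kb position) and 8.88 (69.8 kb away, with none). A CTCF match lay at the summit of 1 of the 11, a weak region of signal 3.69, 80.6 kb from the Gata2 start.

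Of all RefSeq promoter windows with a GC content of 60 to 70%, 77.2% met a region of the conservative list, and of those with 70 to 80%, 73.7%. Both Gata2 windows fall in these classes and met none, while those of Gata3 (67.3%) and Zfpm1 (73.7%) did. The Gata1 window had 57.3% and met none, in a class (50 to 60%) where 43.3% did. In the pseudoreplicated list of both libraries all 5 windows met a region, where 49.7% of windows with a GC content of 50 to 60%, 85.4% of those with 60 to 70% and 86.8% of those with 70 to 80% did. No window of Zfpm2 was matched.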
